A study of Mus musculus with 6 samples.

Results

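Fga, Fgb and Fgg encode the alpha, beta and gamma chains of fibrinogen, and their transcripts were followed here in mouse kidney. Each gene had 1 probe set in the deposited table, so all 3 of 3 listed genes were measured, out of 22180 genes tested. They were chosen by their measured values in these arrays, which earlier results had shown to be higher in Cre-positive kidneys, so their difference between the groups is given as a description, with no test. The comparison set 3 Cre-positive against 3 Cre-negative kidney samples of mice aged 4 weeks, each hybridised as total RNA to 1 array. The labels name a conditional Pals1/Mpp5 knockout line, kept in a C56Bl/6 background as they spell it, and Six2-Cre transgenic mice of mixed background, and they give a mixed background for all 6 samples. No special treatment was given to either group. How many conditional alleles the Cre-positive and the Cre-negative mice carried is not given in the labels. The series title speaks of haplo-insufficiency, that is, of the loss of 1 of the gene's copies. Six2-Cre is active in the progenitors of nephron epithelia, from podocytes to the connecting tubule, while the collecting duct, vessels and blood cells arise from other precursors. The labels do not say that the samples came from separate mice, so p-values cover the spread between the arrays alone, part of which may be technical.

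Fibrinogen is a soluble plasma protein built from pairs of the 3 chains held together by disulfide bonds. Thrombin clips short peptides from the alpha and beta chains, the resulting fibrin polymerises, coagulation factor XIII crosslinks it and plasmin dissolves it. Hepatocytes make nearly all plasma fibrinogen, and in the acute-phase response interleukin-6 raises transcription of the 3 genes through STAT3 and C/EBP proteins. In rodents the transcripts have also been described in the kidney after tubular injury. Fibrinogen further serves as a ligand of integrins on leukocytes, platelets and other cells.

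The 3 genes lie side by side on mouse chromosome 3. The sequence before each gene start is shown because the interleukin-6 response elements known from human and rat fibrinogen genes hold the core CTGGGA. RefSeq promoter windows (build GRCm38.p6) were found for 3 of 3 members. The 250 bases before the annotated start are printed 5′ to 3′ on the strand of the gene, with CTGGGA in capitals. Fga lies on the plus strand (chr3:83025903-83026152), Fgg on the plus strand (chr3:83007474-83007723) and Fgb on the minus strand (chr3:83049864-83050113).
Fga: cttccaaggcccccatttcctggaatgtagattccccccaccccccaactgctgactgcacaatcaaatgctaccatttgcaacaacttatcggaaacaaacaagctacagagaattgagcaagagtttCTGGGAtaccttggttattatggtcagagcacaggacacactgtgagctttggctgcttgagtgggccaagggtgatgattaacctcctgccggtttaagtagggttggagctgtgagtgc
Fgb: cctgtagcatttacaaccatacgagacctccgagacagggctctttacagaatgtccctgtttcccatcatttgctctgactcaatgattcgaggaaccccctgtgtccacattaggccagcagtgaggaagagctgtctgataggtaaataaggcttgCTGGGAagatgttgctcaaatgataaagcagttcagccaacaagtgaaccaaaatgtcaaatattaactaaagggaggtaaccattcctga
Fgg: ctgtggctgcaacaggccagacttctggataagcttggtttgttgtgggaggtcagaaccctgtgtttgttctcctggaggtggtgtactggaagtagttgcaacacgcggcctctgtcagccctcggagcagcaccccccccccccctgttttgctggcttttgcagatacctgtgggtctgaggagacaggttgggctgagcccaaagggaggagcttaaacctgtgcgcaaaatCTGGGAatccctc

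Each of the 3 windows held CTGGGA once, on the strand of the gene. Counted from the base before the gene start as -1, the match began at -121 in Fga, at -91 in Fgb and at -13 in Fgg. Of the 32851 RefSeq promoter windows of the same length, 27.0% held CTGGGA on either strand, so the match is common. The longer CTGGGAA, which contains it, was present in Fgb and Fgg and in 9.1% of windows. TTCNNNGAA, the palindrome bound by STAT proteins, was found in Fga (from -234) and Fgb (from -162) and in 7.02% of windows. A loose C/EBP pattern, TNNNGNAA, was present in 3 of 3 members and in 78.4% of windows, and overlapped CTGGGAA in Fgg and the STAT palindrome in Fga and Fgb. The C/EBP palindrome TTGCGCAA was in 0 of 3 members and in 0.164% of windows. These are matches of letters, on both strands, and binding was not measured.

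Fgg, the gamma chain gene (probe set 17398485, Entrez gene 99571), stood at 10.84, 11.42 and 11.05 in Cre-positive replicates 1, 2 and 3, against 7.49, 7.50 and 6.95 in Cre-negative replicates 1, 2 and 3, as log2 RMA levels. The groups were far apart, with 3.35 between the lowest Cre-positive and the highest Cre-negative array. Mean levels were 11.11 ± 0.29 in Cre-positive and 7.31 ± 0.32 in Cre-negative arrays (SD, n = 3 each). The difference was 3.79 ± 0.19 (SE of the limma fit), a 13.9-fold higher level, and the 3rd largest rise among all tested genes.

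Fga, the alpha chain gene (probe set 17398499, Entrez gene 14161), stood at 8.65, 9.24 and 8.87 in the Cre-positive arrays, in the same replicate order, against 6.52, 6.51 and 6.07 in the Cre-negative arrays. Here too the groups did not overlap, and the gap between them was 2.13. Means were 8.92 ± 0.30 in Cre-positive and 6.37 ± 0.26 in Cre-negative arrays (SD, n = 3 each). The difference of 2.55 ± 0.18 corresponds to 5.87-fold and ranked 32nd.

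Fgb, the beta chain gene (probe set 17406252, Entrez gene 110135), stood at 7.60, 9.84 and 8.35 in Cre-positive replicates 1, 2 and 3, against 6.34, 5.84 and 5.08 in Cre-negative replicates 1, 2 and 3. The groups did not overlap, but the Cre-positive arrays alone spanned 2.24 and the gap to the Cre-negative arrays was 1.26. Means were 8.60 ± 1.14 in Cre-positive and 5.75 ± 0.64 in Cre-negative arrays (SD, n = 3 each). The difference was 2.84 ± 0.54, the widest SE among the chains, or 7.18-fold, and ranked 22nd. Leaving out Cre-positive replicate 2, the array with the highest Fgb level, lowered the difference to 2.22.

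All 3 members were thus higher in every Cre-positive than in every Cre-negative array, as were 18.6% of all tested genes. At an adjusted p under 0.05 by limma, 10.7% of the tested genes were called higher and 21.8% differed in either direction. These shares are given as background only, since the same contrast chose the members. Levels of different probe sets are not comparable, so the 3 chains cannot be ranked by abundance.

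**Figure D1:**
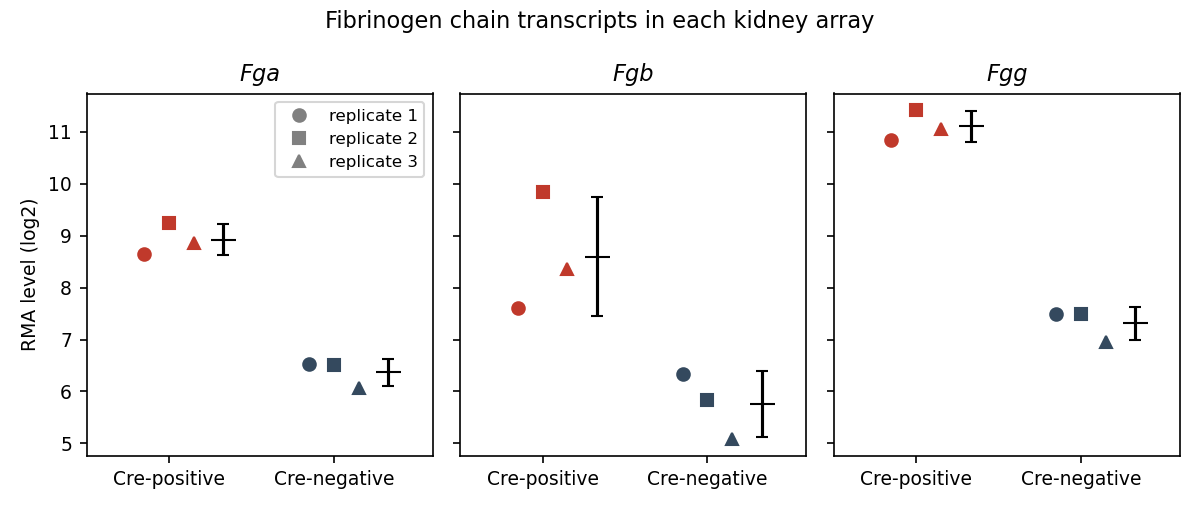
Log2 RMA level of Fga, Fgb and Fgg (vertical axis) in the 3 Cre-positive and 3 Cre-negative arrays, 1 symbol shape per replicate number, with the group mean and SD beside the points. The groups do not overlap for any of the 3 genes, and Fgb spreads most, from 7.60 to 9.84 in Cre-positive arrays.

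Sex, which the labels do not give, was not balanced over the arrays as read from sex-linked transcripts. Xist, the noncoding RNA of the inactive X chromosome, measured 4.29, 4.13 and 4.00 in Cre-positive replicates 1, 2 and 3, against 10.76, 10.70 and 4.16 in Cre-negative replicates 1, 2 and 3. Uty, a Y-linked gene, was high in the 3 Cre-positive arrays and in Cre-negative replicate 3. The Cre-negative group therefore holds 1 male and 2 female samples. Each chain was lowest in that male Cre-negative array. Against it alone, the differences were 4.16 for Fgg, 2.85 for Fga and 3.52 for Fgb, each larger than against all 3 Cre-negative arrays. With 1 male control array, sex and array cannot be told apart within the Cre-negative group. All Cre-positive arrays are male, so a fit with sex as a second factor also compares them with that 1 array. Calls said below to hold or to be lost with sex as a second factor rest on it. Cre-positive replicate 2 carried the muscle transcript Myh4 (7.72, with 3.93 and 4.35 in the other Cre-positive arrays), and Cre-negative replicate 2 the adrenal transcript Cyp11b1 (11.10, with 3.99 and 4.24 in the other Cre-negative arrays). Without both of these arrays the differences were 3.73 for Fgg, 2.46 for Fga and 2.27 for Fgb.

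Mpp5, the gene that Cre is meant to inactivate, was lower in the Cre-positive arrays. Its levels were 8.04, 8.06 and 8.20 in Cre-positive arrays, against 8.66, 8.69 and 8.78 in Cre-negative arrays, a difference of -0.61 ± 0.09 (limma adjusted p = 0.00232). Whether its probe set covers the deleted exons is not given by the labels. The tissue label fitted its markers in all 6 arrays, with Umod at 12.48 to 12.88 and Slc34a1 at 12.15 to 13.03 on a scale that ran from 1.89 to 13.6. Of 10 measured kidney markers 6 fell and 1, the collecting duct water channel Aqp2, rose (0.91 ± 0.23, limma adjusted p = 0.0239), which is 70% called against 21.8% over all genes. The falls included the megalin gene Lrp2 (-1.11 ± 0.10) and the nephrin gene Nphs1 (-1.41 ± 0.14). Of the 7 calls, 5 held with sex as a second factor, and those of Aqp2 and Slc12a3 did not. In whole tissue, fewer cells of a type and less RNA per cell cannot be told apart.

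Within the groups the chains were high or low in the same arrays. Cre-positive replicate 2 was the highest, replicate 3 the middle and replicate 1 the lowest for each of Fga, Fgb and Fgg. That order was seen in 12.7% of all tested genes, and in 13.2% of the 2372 genes called higher. Together with a minimum in Cre-negative replicate 3, which the 3 chains also share, it was seen in 4.23% of tested genes and 4.89% of those called higher. The order was examined after the values were seen.

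Fga and Fgg kept an almost fixed distance. The rise of Fgg over its Cre-negative mean exceeded that of Fga by 1.24 on the log2 scale in each of the 3 Cre-positive arrays (SD 0.0033, n = 3). In the Cre-negative arrays the same quantity varied between -0.07 and 0.04 around its mean. When each gene was expressed as its deviation from the mean of its own group, Fga was the nearest to Fgg of 22179 other genes, with a root mean square distance of 0.0356 over the 6 arrays, where the median gene was at 0.27. Seen from Fga, Fgg was the 2nd nearest. This measure was added after the values were seen and describes only these 6 arrays, whose sex imbalance it shares.

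Fgb followed the same order with a wider swing. Its rise fell short of that of Fgg by 1.69 in the array where the 2 differed most and by 0.02 in Cre-positive replicate 2, where they were nearly equal. Its SD around the group means was 0.92, larger than in 99.8% of tested genes. That of Fga was 0.28 and that of Fgg 0.31, larger than in 91.4% and 93.7% of tested genes. Among genes ranked by within-group distance to Fgb, Fgg was the 47th and Fga the 60th. Seen from the other chains, whose spread was smaller than that of Fgb, Fgb was far off. It was the 21988th of 22179 genes from Fga (distance 0.541, against 0.250 for the median gene) and the 21934th from Fgg (0.533, against 0.270).

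**Figure D2:**
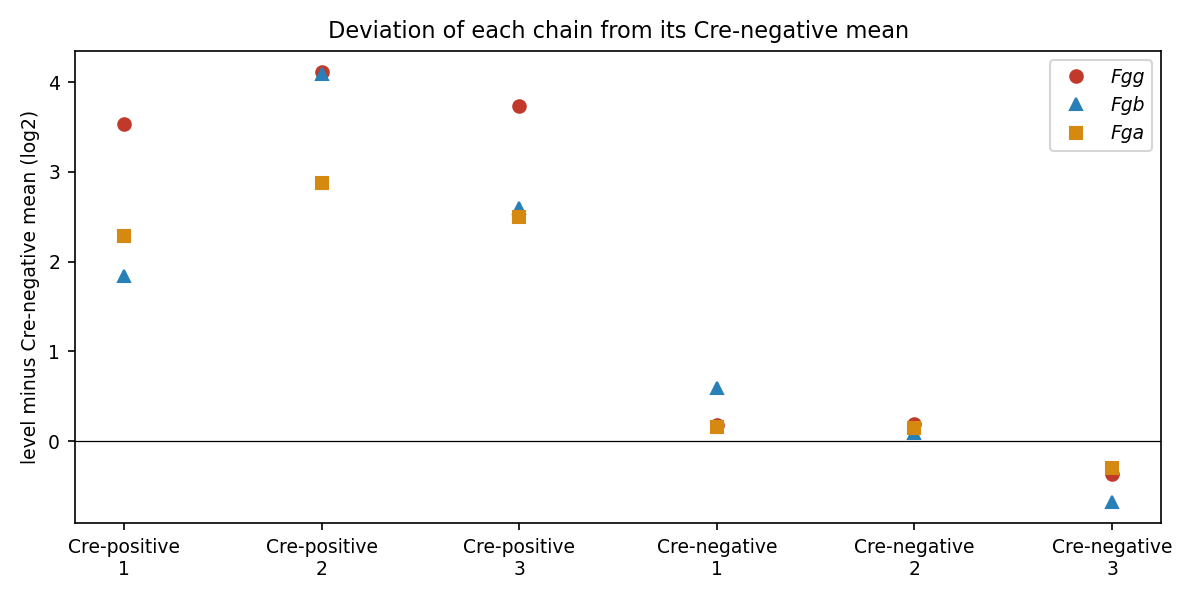
Deviation of each chain's log2 level from its own Cre-negative mean (vertical axis) in each array (horizontal axis). Fgg lies 1.24 above Fga in each Cre-positive array, while Fgb lies below Fga in replicate 1 and close to Fgg in replicate 2.

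Genes with the most similar course over all 6 arrays were found by the root mean square distance between deviations from the Cre-negative mean, over 6 arrays. This distance contains the group difference by which the members were chosen. A gene must have a rise of like size to come out near, whatever its order within the groups. Genes whose symbols begin with Gm or Mir and a digit, or with Olfr, Vmn, Snor or Sca, or end in Rik, were left out. Places in this ranking therefore do not compare with the within-group places above, which were taken among all 22179 other genes. For Fga the nearest were Spaca7 (distance 0.17), the ceruloplasmin gene Cp (0.20), the endotoxin co-receptor gene Cd14 (0.21), the transcription factor gene Runx1 (0.28) and the hyaluronan receptor gene Cd44 (0.30). Nearest to Fgb were the adhesion molecule gene Vcam1 (0.52), Fga itself (0.58), the diamine oxidase gene Aoc1 (0.60), the monocyte chemoattractant gene Ccl2 (0.63) and Spaca7 (0.72). The course of Fgg was closest to that of Lcn2, a lipocalin released by injured tubules (0.39), of the keratin gene Krt20 (0.40), of Ms4a4a (0.42), of Ccl2 (0.51) and of the vitamin D hydroxylase gene Cyp27b1 (0.51). The chains were mostly not each other's nearest by this measure. Fgb was the 65th and Fgg the 177th from Fga, Fgb the 18th and Fga the 22nd from Fgg, and Fgg the 23rd from Fgb. The tubular injury gene Havcr1 stood at 10.32, 11.52 and 10.78 in Cre-positive replicates 1, 2 and 3, against 5.84, 5.31 and 6.85 in Cre-negative replicates 1, 2 and 3. Its Cre-positive arrays thus had the order of the fibrinogen chains, while its Cre-negative arrays did not. Lcn2 had the reverse order in the Cre-positive arrays, with 10.98, 10.65 and 10.86, against a highest level of 7.33 among the Cre-negative arrays.

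Several receptors and transducers of the interleukin-6 family, which drives fibrinogen transcription in hepatocytes, were higher in Cre-positive kidneys. Of 17 measured genes of this family and of fibrinogen transcription factors, 8 rose and 0 fell, which is 47.1% against the 21.8% called over all genes, and the median difference was 0.37 against -0.01 over all genes. The oncostatin M receptor gene Osmr stood at 10.20, 10.17 and 10.19 in Cre-positive arrays, against 8.22, 8.25 and 8.11 in Cre-negative arrays, a difference of 2.00 ± 0.08 (limma adjusted p = 2.56e-05). The feedback inhibitor gene Socs3, itself a STAT3 target, stood at 7.50, 7.18 and 7.39 in Cre-positive arrays, against 5.74, 5.71 and 5.97 in Cre-negative arrays (1.55 ± 0.12, limma adjusted p = 0.000165). Neither gene had overlapping groups. Stat3 rose (1.10 ± 0.08, limma adjusted p = 0.000127), as did the interleukin-6 receptor gene Il6ra (0.98 ± 0.10), the cytokine gene Lif (0.64 ± 0.12) and Cebpd, a C/EBP factor of the acute phase (1.12 ± 0.23). The shared receptor subunit Il6st rose by less (0.33 ± 0.09, limma adjusted p = 0.0361). Il6 itself did not pass, with 3.02, 3.30 and 3.63 in Cre-positive arrays, against 2.86, 3.12 and 3.00 in Cre-negative arrays (0.32 ± 0.16, limma adjusted p = 0.197). Nor did Cebpb (0.58 ± 0.19, limma adjusted p = 0.0675). With sex as a second factor, 5 of the 8 calls held, those of Osmr, Stat3, Socs3, Il6ra and Cebpd. Il11ra1 was not analysed here.

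Other acute-phase protein genes, most of which the liver secretes together with fibrinogen, changed as well, in both directions. Of 18 measured genes 11 rose, 1 fell and 6 did not pass (66.7% called, against 21.8% over all genes), with a median difference of 0.98. The protease inhibitor gene Serpina3n rose most (4.46 ± 0.36, limma adjusted p = 0.000208), followed by Lcn2 (3.70 ± 0.12), Cd14 (2.56 ± 0.12), Cp (2.35 ± 0.16) and the acid glycoprotein gene Orm2 (1.96 ± 0.16). The haptoglobin gene Hp stood at 7.29, 9.07 and 8.22 in Cre-positive replicates 1, 2 and 3, against 6.62, 6.67 and 7.07 in Cre-negative arrays (1.41 ± 0.39, limma adjusted p = 0.0365). The Cre-positive arrays of Hp had the order of the 3 chains. Its Cre-negative arrays did not, since Hp was highest in replicate 3, where each chain was lowest. Orm1, a close relative of Orm2, fell (-1.04 ± 0.23, limma adjusted p = 0.0148), and since these genes are near-identical copies the assignment of their probe sets is uncertain. With sex as a second factor 7 of the 12 calls held, and those of Hp and Orm1 did not.

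Most hepatocyte markers did not pass the test or fell. Of 16 measured markers 1 rose, 5 fell and 10 did not pass (37.5% called, against 21.8% over all genes), and the mean log2 level over the list was 6.27 to 6.42 in Cre-positive arrays, against 6.44 to 6.57 in Cre-negative arrays. The albumin gene Alb stood at 5.65, 5.62 and 6.89 in Cre-positive arrays, against 7.61, 7.51 and 6.98 in Cre-negative arrays (-1.31 ± 0.34, limma adjusted p = 0.0289). Every Cre-positive value of Alb lay below every Cre-negative one, the opposite of the chains. The apolipoprotein gene Apob fell too (-1.08 ± 0.13, limma adjusted p = 0.00122), as did Apoa1 (-0.50 ± 0.14). The prothrombin gene F2 stayed between 4.09 and 4.31 in Cre-positive and between 4.27 and 4.35 in Cre-negative arrays, and the fetuin-A gene Ahsg between 4.85 and 5.64 in Cre-positive and between 4.81 and 4.91 in Cre-negative arrays. Apoh, another secreted liver protein gene, differed by 0.19 ± 0.10 and did not pass (limma adjusted p = 0.216). The marker that rose was the transthyretin gene Ttr (1.10 ± 0.22, limma adjusted p = 0.0100). Of the 6 calls, 1 held with sex as a second factor, that of Apob, and 3 held with the replicate number as a block, those of Apob, Apoc3 and Ttr. No marker was listed at 0, since RMA gives every probe set a level. Some listed genes were bright in all 6 kidney arrays, among them Ttr (10.27 to 12.08) and Apob (8.26 to 9.63). Which cells carried the transcripts of this list was not tested.

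**Figure D3:**
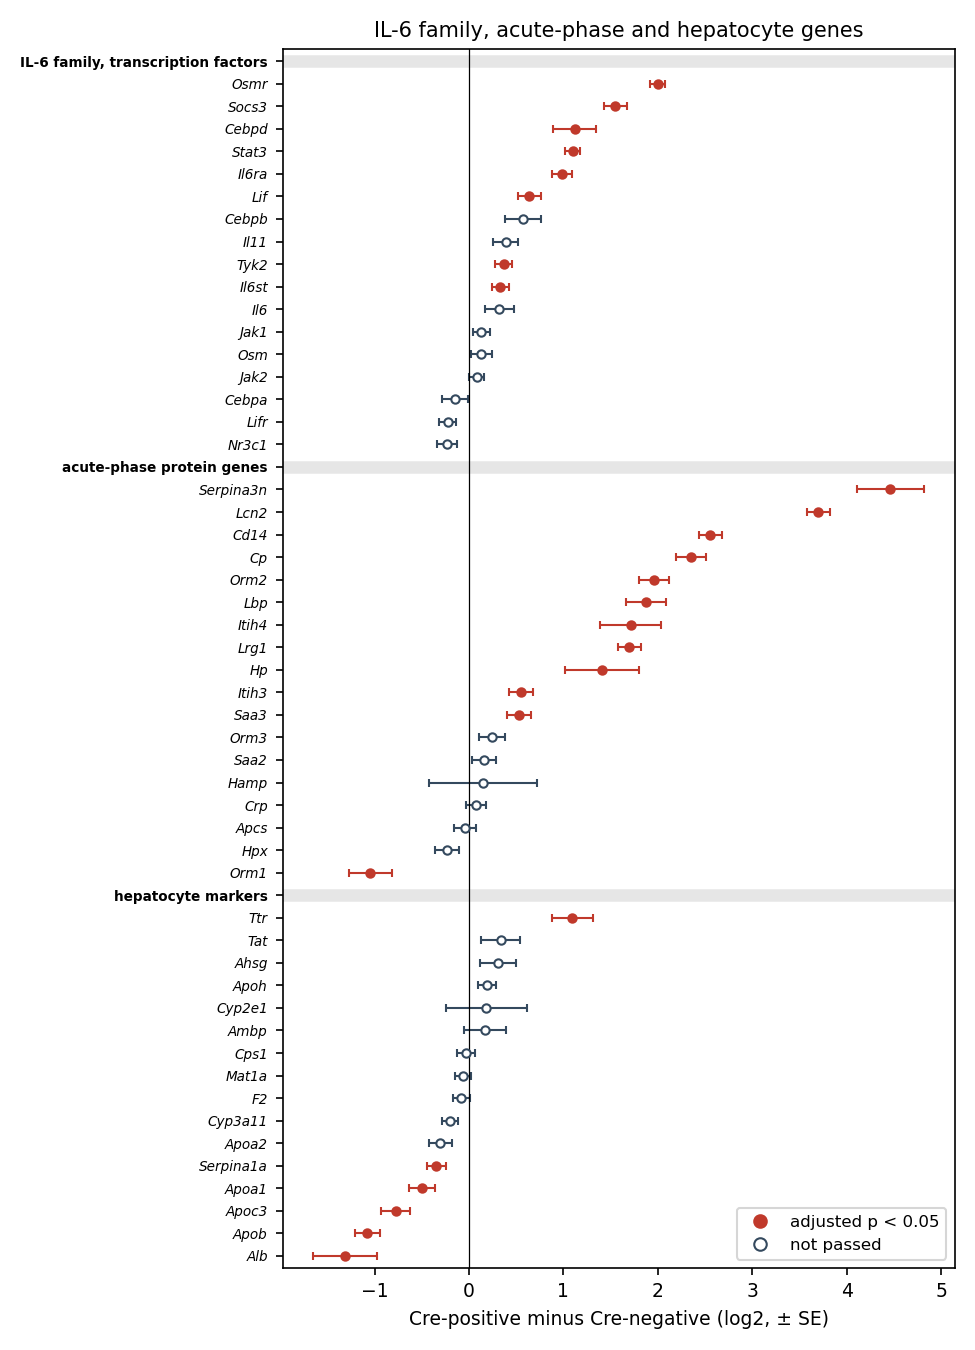
Cre-positive minus Cre-negative difference on the log2 scale, with its SE, for genes of interleukin-6 family signalling, acute-phase proteins and hepatocyte markers, filled where limma's adjusted p was under 0.05. Osmr (2.00) and Serpina3n (4.46) lead the upper groups, while in the lowest group Ttr rose and Alb, Apob, Apoc3, Apoa1 and Serpina1a fell.

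Blood cells are another source of coagulation transcripts. None of 6 measured megakaryocyte and platelet markers passed limma's test (0% called, against 21.8% over all genes), with 1 of them, Itga2b, at an unadjusted p under 0.05. A second quantile normalization and median centring each called 1 of the 6. The platelet factor 4 gene Pf4 differed by 0.65 ± 0.38 (limma adjusted p = 0.29), and the mean log2 level over the list was 5.71 to 5.79 in Cre-positive arrays, against 5.62 to 5.75 in Cre-negative arrays. Of the red blood cell markers 1 had a row of its own, Slc4a1, which kidney intercalated cells also express, and it fell (-1.02 ± 0.15, limma adjusted p = 0.00297), a call that was lost with sex as a second factor. Macrophage markers moved the other way: 6 of 7 rose (85.7% called, against 21.8% over all genes), 5 of them also with sex as a second factor, among them Cd68 (2.13 ± 0.21) and Lyz2 (2.12 ± 0.23), and their mean level was 8.39 to 9.34 in Cre-positive arrays, against 6.97 to 7.09 in Cre-negative arrays. It was highest in Cre-positive replicate 3, where no chain was highest. The part of macrophages in the fibrinogen difference was not tested.

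Genes that turn fibrinogen into fibrin showed opposite changes. Of 22 measured clotting factors and inhibitors 4 rose, 5 fell and 13 did not pass (40.9% called, against 21.8% over all genes), with a median difference of -0.07. The tissue factor gene F3, whose product starts the extrinsic cascade, rose (1.32 ± 0.12, limma adjusted p = 0.000404), and the thrombin precursor gene F2 did not pass (-0.08 ± 0.09, limma adjusted p = 0.599). The 2 subunits of factor XIII, the fibrin crosslinker, went apart. F13a1, the catalytic subunit, made by macrophages and platelets, stood at 7.29, 7.44 and 8.06 in Cre-positive arrays, against 6.02, 5.96 and 6.39 in Cre-negative arrays (1.47 ± 0.21, limma adjusted p = 0.00214). F13b, the carrier subunit, stood at 6.58, 6.54 and 7.50 in Cre-positive arrays, against 10.19, 10.14 and 10.14 in Cre-negative arrays (-3.29 ± 0.24, limma adjusted p = 0.000134). The factor V gene F5 fell as well (-2.31 ± 0.15), as did Proc, the precursor of the anticoagulant protein C (-1.42 ± 0.20), and the inhibitor gene Tfpi2 (-1.47 ± 0.17). Thbd, which encodes the thrombin receptor thrombomodulin, differed by -0.02 ± 0.09 and did not pass. Of the 9 calls, 6 held with sex as a second factor, those of F5, F13b, F3, Tfpi2, Proc and F13a1.

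Of 10 measured genes of fibrinolysis 4 rose, 1 fell and 5 did not pass (50% called, against 21.8% over all genes), with a median difference of 0.13. The urokinase receptor gene Plaur rose (1.56 ± 0.10, limma adjusted p = 9.82e-05), as did the endocytic receptor gene Lrp1 (1.17 ± 0.09) and Anxa2 and S100a10 (0.89 ± 0.09 and 0.59 ± 0.09), whose products form a complex that binds plasminogen. The plasmin inhibitor gene Serpinf2 fell. Its levels were 8.07, 8.07 and 7.87 in Cre-positive arrays, against 9.93, 9.92 and 11.28 in Cre-negative arrays (-2.37 ± 0.33, limma adjusted p = 0.00218), highest in the male Cre-negative array. The plasminogen gene Plg (0.02 ± 0.12) and its activators Plat (0.01 ± 0.13) and Plau (-0.13 ± 0.10) did not pass, with limma adjusted p = 0.46 to 0.976. The direction of Plg and Plat changed with the scaling of the arrays. The call of S100a10 was lost with sex as a second factor, and the other 4 held. Serpine2 and Cpb2 were not analysed here.

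Receptors for fibrinogen and fibrin were mostly higher. Of 12 measured genes 7 rose, 1 fell and 4 did not pass (66.7% called, against 21.8% over all genes), with a median difference of 0.75. Itgam and Itgb2 encode the leukocyte integrin Mac-1, which binds the gamma chain. Itgam stood at 7.20, 7.48 and 7.99 in Cre-positive arrays, against 5.47, 4.80 and 5.18 in Cre-negative arrays (2.40 ± 0.23, limma adjusted p = 0.000424), and Itgb2 differed by 0.93 ± 0.19 (limma adjusted p = 0.0119). Itgam is also a macrophage marker, and it was highest in Cre-positive replicate 3, as was the macrophage list. The endothelial ligand-bridging gene Icam1 rose (1.21 ± 0.10), as did Tlr4, an innate receptor that fibrinogen can stimulate (1.09 ± 0.08), the fibronectin receptor subunit Itga5 (0.96 ± 0.12) and Itgb3, the beta subunit of the vitronectin receptor and of the platelet fibrinogen receptor (0.56 ± 0.12). The vascular endothelial cadherin gene Cdh5 fell (-0.43 ± 0.12, limma adjusted p = 0.0381). With sex as a second factor 4 of the 8 calls held, those of Tlr4, Icam1, Itgam and Itga5.

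**Figure D4:**
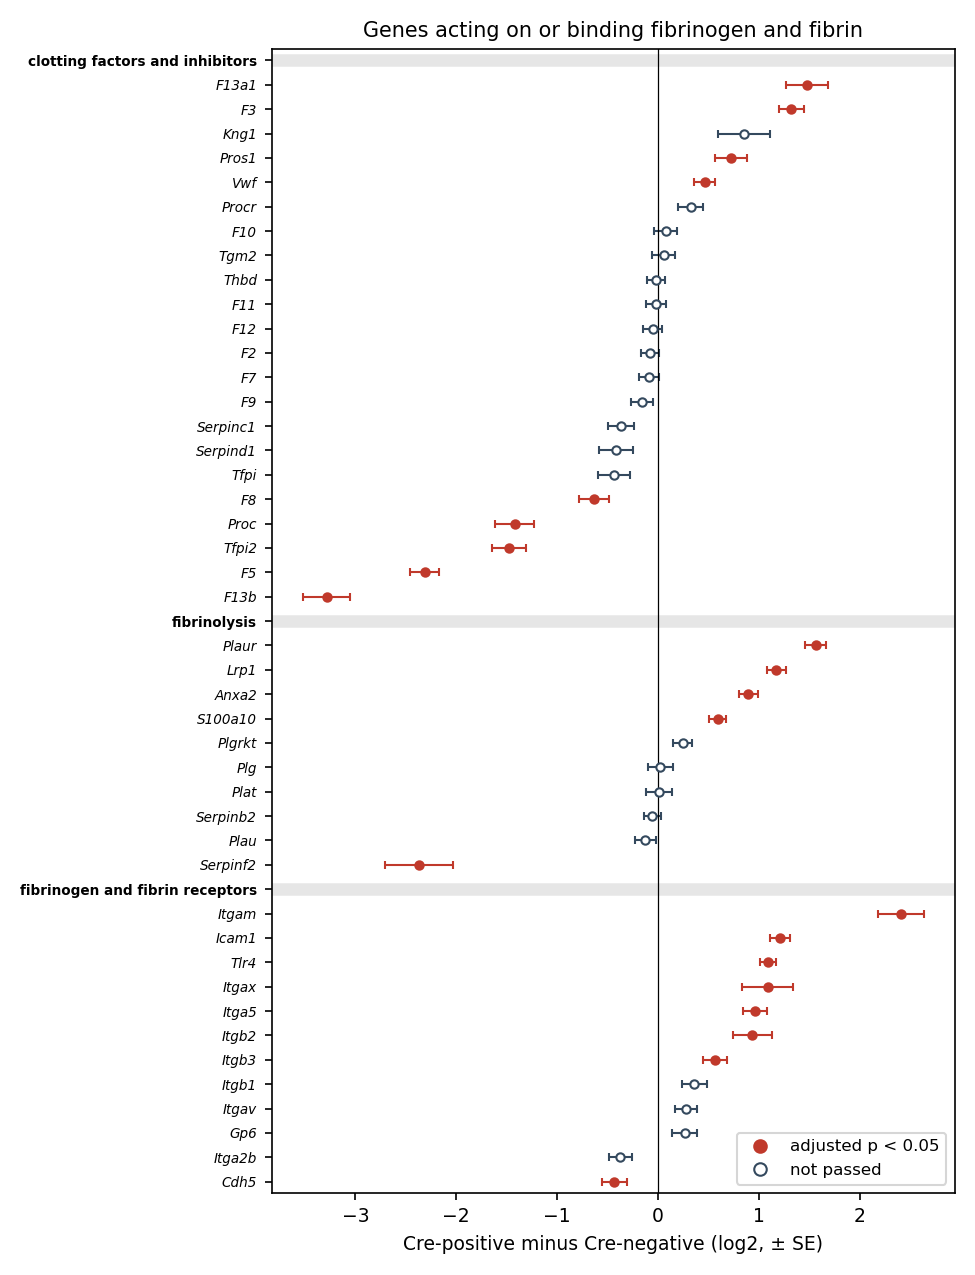
Cre-positive minus Cre-negative difference on the log2 scale, with its SE, for clotting factors and inhibitors, genes of fibrinolysis and receptors of fibrinogen and fibrin, filled where limma's adjusted p was under 0.05. F13a1 (1.47) and F13b (-3.29) lie at opposite ends of the first group, and Itgam (2.40) leads the receptors.

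The genes directly beside the cluster were not called higher. In the order of the RefSeq gene table (GRCm38.p6) the 3 fibrinogen genes follow each other as Fgg, Fga and Fgb, and the 5 nearest measured genes on each side were examined. Of these 10 genes 2 rose, 3 fell and 5 did not pass (50% called, against 21.8% over all genes), with a median difference of -0.17. Next to Fgg lies Lrat, the lecithin retinol acyltransferase gene, which stood at 6.04, 6.00 and 5.96 in Cre-positive arrays, against 7.13, 6.85 and 6.94 in Cre-negative arrays (-0.97 ± 0.10, limma adjusted p = 0.000519). Next to Fgb lies the splicing factor gene Plrg1, which did not pass (-0.03 ± 0.11, limma adjusted p = 0.872). Farther out, the innate receptor gene Tlr2 (1.07 ± 0.13) and Tmem131l (0.64 ± 0.13) rose, and Sfrp2, a secreted Wnt modulator (-0.57 ± 0.16), and Map9 (-0.56 ± 0.10) fell. The dim genes Npy2r (-0.27 ± 0.12), Rbm46 (-0.23 ± 0.12), Rbm46os (-0.10 ± 0.12) and 1700028M03Rik (-0.09 ± 0.10) did not pass, with levels of 2.76 to 4.46 in Cre-positive and 2.75 to 4.81 in Cre-negative arrays. With sex as a second factor 3 of the 5 calls held, those of Lrat, Tlr2 and Tmem131l.

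**Figure D5:**
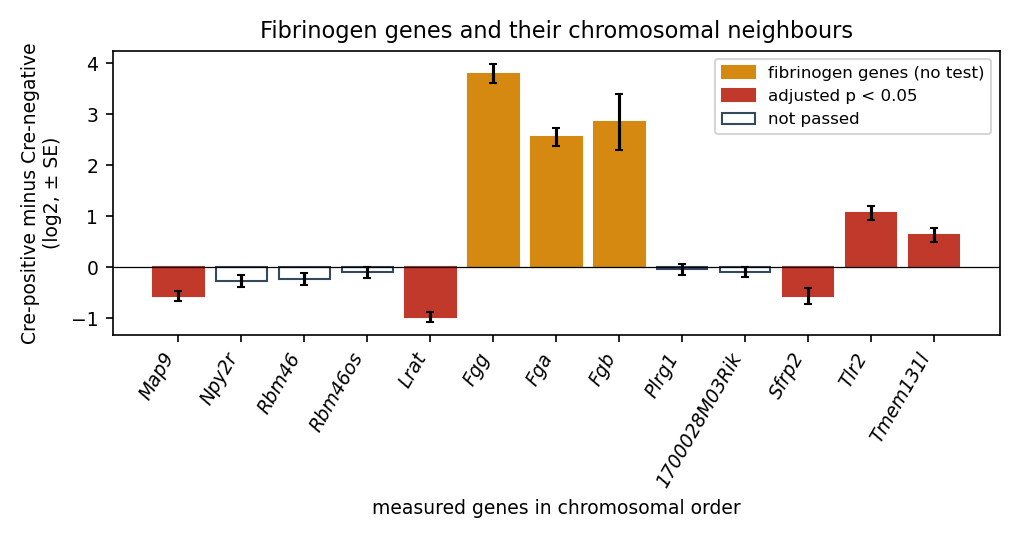
Cre-positive minus Cre-negative difference on the log2 scale, with its SE, for the fibrinogen genes (described, not tested) and the 5 measured genes on each side, in chromosomal order. The 3 fibrinogen genes lie between 2.55 and 3.79, while the genes next to them, Lrat and Plrg1, lie at -0.97 and -0.03.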

How the data were processed

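Kidney total RNA was biotin-labelled and hybridised, with 1 array for each of 6 samples, per the labels. A table of log2 values was deposited by the authors, and the submitters' processing notes name RMA and Partek for it, without versions. RMA corrects background, quantile-normalizes arrays and summarises probe sets, and it compresses differences of dim probe sets. The genome build behind the probe sets is not given in the labels. Of 41345 rows, 23521 had exactly 1 gene symbol in GEO's platform annotation, 1814 had several and 16010 none. The row with the highest mean stood for a gene, which left 22180 genes, and 0 columns of other samples were present. Array medians lay between 5.55 and 5.64. The comparison used limma 3.58.1 (R 4.3.3) with lmFit and eBayes, was two-sided and without covariates, and p-values were adjusted by Benjamini-Hochberg over the 22180 genes, called at 0.05. The number of arrays limits precision. In simulated data with 22180 genes, 100 genes were changed by 0.5, 50 by 1 and 50 by 2 (log2), and 25%, 70% and 96% of them were called. Far fewer genes change there than were called in the real arrays. The adjustment of p-values depends on that share, so these rates do not carry over to the real comparison. Sex was read from Xist and Uty.

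The members, the gene lists and the tests were chosen with earlier results of these data known. Named are the members, in each list up to 6 called genes of smallest p and genes with a fixed role beside fibrinogen, and the 10 neighbours. The 5 genes nearest to each member are also named, from a ranking that left out predicted and similar loci by their symbols. Umod, Aqp2, Orm1, Itga2b and Cdh5 fall outside that rule and were named after their values were seen. The alternatives run were median centring, a second quantile normalization, a filter on low levels, eBayes with trend and robust settings, the mean of a gene's rows, the replicate number as a block, sex as a second factor, male arrays alone and leaving out arrays. Motifs were searched with Python 3.11.15 and figures drawn with matplotlib 3.10.9.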

Additional observations from a re-analysis of the deposited data

How the results depend on the processing

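Over the alternatives the differences of the 3 chains were 3.61 to 4.16 for Fgg, 2.39 to 2.85 for Fga and 2.22 to 3.52 for Fgb. Their direction stayed the same, but leaving out arrays could not reverse it, since the groups do not overlap. The mean of a gene's rows and the replicate block could not move the values, since each chain has 1 row and the block is balanced. The highest values came with sex as a second factor or male arrays only, which gave 4.16 for Fgg and 2.85 for Fga. These 2 settings give the same difference, since both set the Cre-positive arrays against the 1 male Cre-negative array. Leaving out each array in turn gave 3.61 to 3.93, 2.39 to 2.69 and 2.22 to 3.34. The labels do not say that the replicate numbers pair the samples. Deviations of same-numbered arrays correlated at 0.03, -0.042 and -0.015. With so few arrays, and with sex mixed in the Cre-negative group alone, these values cannot decide whether pairs exist. With the replicate number as a block 3977 genes were called, and 3 hepatocyte markers instead of 6. The 4844 genes called became 2030 with sex as a second factor, 1101 with male arrays only and 1853 without replicate 2 of both groups, and 3141 (without Cre-negative replicate 1) to 4885 without 1 array. Fewer arrays or more terms enter these fits, and the cause was not tested further. With sex as a second factor and with male arrays only, calls numbered 4 and 4 among the receptors, 2 and 1 among fibrinogen-like genes, 7 and 7 among acute-phase genes, 2 and 1 among hepatocyte markers, 0 and 0 among red blood cell markers, and 3 and 2 among the neighbours. Male arrays only gave 5 clotting, 5 interleukin-6 family and 4 kidney marker calls. Without replicate 2 of both groups there were 4 receptor, 2 fibrinogen-like, 5 interleukin-6 family, 2 hepatocyte and 3 neighbour calls. Without 1 array, calls ranged from 2 (without Cre-negative replicate 1) to 6 among fibrinogen-like genes, with 3 without Cre-positive replicate 2, and from 3 (without Cre-negative replicate 2) to 5 among hepatocyte markers. Leaving out dim genes left 7 acute-phase calls of 7 genes, and 1 platelet marker call, as did a second quantile normalization and median centring. The median of all genes was -0.031 after that normalization and -0.0734 after median centring, and the cause was not tested. Of 90 other genes whose values were followed, those that changed direction lay near 0 or were sex- or tissue-bound. With sex as a second factor or male arrays only, Uty was at -0.10, Thbd at 0.025, Fgl1 at 0.087 and 1700028M03Rik at 0.053. Median centring gave -0.053 for Plat and -0.040 for Plg, and a second quantile normalization -0.014 for Plg. Without replicate 2 of both groups Fgl1 was at 0.098, Myh4 at -0.40, Plat at -0.023, Plg at -0.099 and Thbd at 0.014. Without 1 array, values ran from -0.17 to 0.10 for Fgl1, -0.51 to 1.39 for Myh4, -0.071 to 0.14 for Plat, -0.067 to 0.12 for Plg, -0.12 to 0.061 for Plrg1, -0.19 to 0.00098 for Rbm46os and -0.082 to 0.032 for Thbd. RMA signals near the lower end of the scale limit what can be said of dim genes such as Il6.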

Other observations

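Genes that share the fibrinogen-like domain, which the carboxyl ends of the beta and gamma chains carry, moved in both directions. Of 16 measured genes 2 rose, 3 fell and 11 did not pass (31.2% called, against 21.8% over all genes), with a median difference of 0.05. The matrix glycoprotein gene Tnc, tenascin-C, stood at 8.88, 9.26 and 9.75 in Cre-positive arrays, against 7.33, 7.73 and 7.46 in Cre-negative arrays (1.79 ± 0.21, limma adjusted p = 0.00106). Angptl4, a lipoprotein lipase inhibitor, rose as well (1.62 ± 0.43, limma adjusted p = 0.0327), with 8.96 in the lowest Cre-positive and 8.94 in the highest Cre-negative array. The endothelial growth factor genes Angpt1 (-0.90 ± 0.19) and Angpt2 (-1.18 ± 0.26) and the tenascin gene Tnn (-0.78 ± 0.12) fell. Fgl1, a liver-secreted relative of fibrinogen, differed by -0.07 ± 0.16 and Fgl2, a membrane-bound prothrombinase, by 0.45 ± 0.26, and neither passed (limma adjusted p = 0.805 and 0.287). The calls of Tnc and Tnn held with sex as a second factor.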
